A study of Mus musculus with 24 samples.

Results

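The genes described are 9 intracellular feedback regulators of cytokine signalling, taken by symbol from the deposited tables: the SH2-containing inhibitor gene Cish, the suppressors of cytokine signalling Socs1, Socs2, Socs3 and Socs6, the kinase genes Pim1, Pim2 and Pim3, and the transcriptional repressor gene Bcl6. All 9 were found among the 48709 genes of the tables, of which 21058 were above 0 in any library. Their RNA was compared over 24 libraries of bone marrow neutrophils of C57Bl/6J mice that had been enriched over Percoll and were cultured for 4 h in 6 groups of 4 libraries. Cells were left untreated or received 10 ng/mL lipopolysaccharide with 2 ng/mL interferon-gamma (LPS/IFNγ), 20 ng/mL interleukin 4 (IL4), 10 ng/mL insulin-like growth factor 1 (IGF1), or insulin at 10 or 100 ng/mL. All cells shared the same medium with fetal calf serum, and no group carried a genetic change. The file headers number the libraries of every group 6, 9, 10 and 11. The 6 libraries that share a number are termed a preparation, although no source used here says whether it marks a mouse, a day or a library batch.

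Cytokine receptors without kinase activity of their own signal through Janus kinases (JAKs), which phosphorylate STAT transcription factors. CISH and the SOCS proteins are made in response to STATs and bind receptors or JAKs through an SH2 domain, closing a negative feedback loop, and their SOCS box recruits a ubiquitin ligase. PIM kinases are serine/threonine kinases that are active without an activating phosphorylation step, so that their amount is set largely by transcription, often by STATs. BCL6 is a zinc-finger repressor that can occupy the same DNA elements as STATs, and it restrains inflammatory genes in myeloid cells.

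The STAT-type element TTCNNNGAA was looked for in RefSeq promoter windows of GRCm38.p6, which run from 250 bases before to 50 after a start site and were given for 7 of the 9 genes. The pattern is its own reverse complement in form, so a match is the same on both strands. It was present before the start in Socs3 and in both windows of Bcl6, and in Cish it began at the start site itself and again at position 12. In all, 2 of the 7 genes held it in the 250 bases before the start and 3 of 7 in the whole window of 300 bases. Of all 32851 promoter windows, 7.02% held it in the 250 bases and 8.30% in the 300 bases. These shares are per window, whereas the 7 genes had 9 windows, 2 each for Bcl6 and Pim1. A gene with 2 windows can match in either, so counts per gene and shares per window are not alike. The windows of Socs1, Pim1 (2 windows), Pim2 and Pim3 did not contain these letters, and the wider pattern with 4 bases between TTC and GAA was in no window of the 7 genes, against 6.95% of all windows of 300 bases. The stretches around the matches are shown as a description, and a link between the element and the responses below was not tested. The capitals mark the element, and a match in letters is a description and not a binding site.
Cish, chr9:107296634-107296678, plus strand: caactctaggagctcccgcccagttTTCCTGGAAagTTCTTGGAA
Socs3, chr11:117969487-117969545, minus strand: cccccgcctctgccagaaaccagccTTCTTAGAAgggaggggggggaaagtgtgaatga
Bcl6, upstream start site, chr16:23988937-23988995, minus strand: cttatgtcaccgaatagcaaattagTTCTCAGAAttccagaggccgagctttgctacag
Bcl6, downstream start site, chr16:23981338-23981476, minus strand: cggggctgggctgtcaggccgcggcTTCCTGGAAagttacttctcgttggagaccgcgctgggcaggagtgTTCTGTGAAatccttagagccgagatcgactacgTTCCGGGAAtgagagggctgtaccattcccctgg
The 2 Cish elements were separated by 2 bases. The second Bcl6 window held 3 elements, the first of them with the same letters as the first element of Cish.

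Levels are in RPKM, reads scaled to exon length and to mapped reads, and the libraries held an estimated 18748634 to 30925209 mapped reads, worked out from the value of 1 read in each file. Differences were tested with limma on log2(RPKM + 0.1), a scale that understates the change of low genes, in the 2 groups of 4. Calls needed both a difference of at least 1.5-fold and an adjusted p (Benjamini-Hochberg, over all genes tested) under 0.05, and all 9 genes passed the filter on low values in each of the 10 comparisons made. No library can be tied to 1 mouse from these sources, so p-values measure the spread between these libraries. In bulk RNA, a change in the number of cells of a type and a change in RNA per cell cannot be told apart. All 13 neutrophil markers found in the tables averaged at least 1 RPKM in every group, and their summed level was 85920 to 116500 RPKM. Summed over the same libraries, eosinophil markers reached 1074 to 1924 RPKM, erythroid markers 593.5 to 6159, monocyte and macrophage markers 242.2 to 392, B lineage markers 96.98 to 299.3 and T and NK markers 9.42 to 27.5. No listed marker was at 0 in all libraries.

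LPS/IFNγ, a bacterial product combined with an interferon, raised 5 of the 9 genes: Socs3, Socs1, Cish, Pim1 and Pim2. The other 4 genes were not called. The 5 genes called are to be read against 8.15% of 13062 genes called higher in that comparison and 17.8% called lower. The LPS/IFNγ libraries of these 5 genes were all above the untreated ones, a separation found in 10.9% of genes tested.

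Socs3, the inhibitor best known for binding the receptor chain gp130 and the G-CSF receptor, had 1.52, 2.77, 2.49 and 2.39 RPKM in the untreated libraries of preparations 6, 9, 10 and 11. With LPS/IFNγ it had 90.01, 95.2, 106.0 and 96.5 RPKM in the same order. Every LPS/IFNγ library was thus far above every other library, and the difference was 5.37 ± 0.16 (SE) on the log2 scale (limma adjusted p = 1.84e-08), 41.4-fold. Socs3 had a mean of 7.68 ± 2.54 RPKM with IL4 and 8.01 ± 2.18 with IGF1 (SD, n = 4).

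Socs1, an inhibitor that binds the JAK kinase domain and limits interferon-gamma signalling, had 1.61, 2.31, 1.67 and 0.834 RPKM untreated in preparations 6, 9, 10 and 11. It had 59.8, 54.5, 76.6 and 68.7 RPKM with LPS/IFNγ. No library of one group came near those of the other, with a log2 difference of 5.32 ± 0.27 (SE, limma adjusted p = 1.09e-06), 39.9-fold. Within preparations the log2 difference ran from 4.50 in preparation 9 to 6.20 in preparation 11, whose untreated library had the lowest Socs1 level of its group.

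Cish, first described as a gene induced by cytokines through STAT5, had 0.434, 0.217, 0.274 and 0.403 RPKM untreated in preparations 6, 9, 10 and 11. It had 8.11, 7.54, 8.46 and 8.04 RPKM with LPS/IFNγ. The treated libraries lay close together and apart from the untreated ones, with a log2 difference of 4.27 ± 0.17 (SE, limma adjusted p = 6.06e-08), 19.3-fold. Untreated libraries held 37 to 61 Cish reads and LPS/IFNγ libraries 1018 to 1596, so the lower levels rest on few reads. Cish RPKM are divided by 6419 bases of annotated exons.

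Pim1, the founding PIM kinase and a survival kinase of blood cells, was the most abundant kinase of the set, with 42.6, 53.8, 56.9 and 38.8 RPKM untreated in preparations 6, 9, 10 and 11. It had 230.1, 221.6, 259.7 and 199.7 RPKM with LPS/IFNγ. All 4 treated libraries were above all untreated ones, with a log2 difference of 2.26 ± 0.13 (SE, limma adjusted p = 1.11e-06), 4.77-fold. Pim1 overlaps the antisense gene Gm26885 over 1173 bases, and Gm26885 had 0.477 to 0.946 RPKM untreated and 3.17 to 4.04 with LPS/IFNγ. Whether the authors counted by strand is not stated in these sources, and the reads of the pair may not be fully separated.

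Pim2, an X-linked PIM kinase, had 5.21, 5.17, 4.84 and 4.32 RPKM untreated in preparations 6, 9, 10 and 11. It had 16.4, 18.7, 12.7 and 12.6 RPKM with LPS/IFNγ. The groups did not overlap, and the log2 difference was 1.59 ± 0.13 (SE, limma adjusted p = 8.50e-06), 3.01-fold.

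Pim3, the third kinase of the family, stood apart from its relatives, with a mean of 1.28 ± 0.29 RPKM untreated and 1.21 ± 0.32 with LPS/IFNγ (SD, n = 4). Its log2 difference was -0.09, with a 95% interval of -0.55 to 0.38, and 3 of 4 preparations were lower. Bcl6 was among the more abundant genes of the set at 35.3 ± 1.0 RPKM untreated and 36.7 ± 2.7 with LPS/IFNγ, a log2 difference of 0.05 (95% interval -0.09 to 0.20). Under median-of-ratios scaling, which moved the median log2 difference of all genes from -0.22 to 0.00 and the share of calls that were higher from 31.4% to 54.7%, the Pim3 difference was 0.14 and that of Bcl6 was 0.30.

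Socs6, a broadly expressed member that binds activated receptor tyrosine kinases, had 1.31, 1.69, 1.33 and 1.55 RPKM untreated in preparations 6, 9, 10 and 11. It had 1.02, 1.31, 1.04 and 1.15 RPKM with LPS/IFNγ. Every treated library lay below every untreated one by a narrow margin, as did 35.8% of genes tested, and the log2 difference of -0.35 ± 0.13 (SE, limma adjusted p = 0.0435) was under the 1.5-fold threshold and beside an all-gene median of -0.22. Under median-of-ratios scaling the Socs6 difference was -0.12 (limma adjusted p = 0.423). Socs2, which restrains growth hormone signalling, was near the detection limit, with 9 to 31 reads a library untreated and 5 to 33 with LPS/IFNγ, and its log2 difference of -0.15 had an interval of -0.72 to 0.41.

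**Figure D1:**
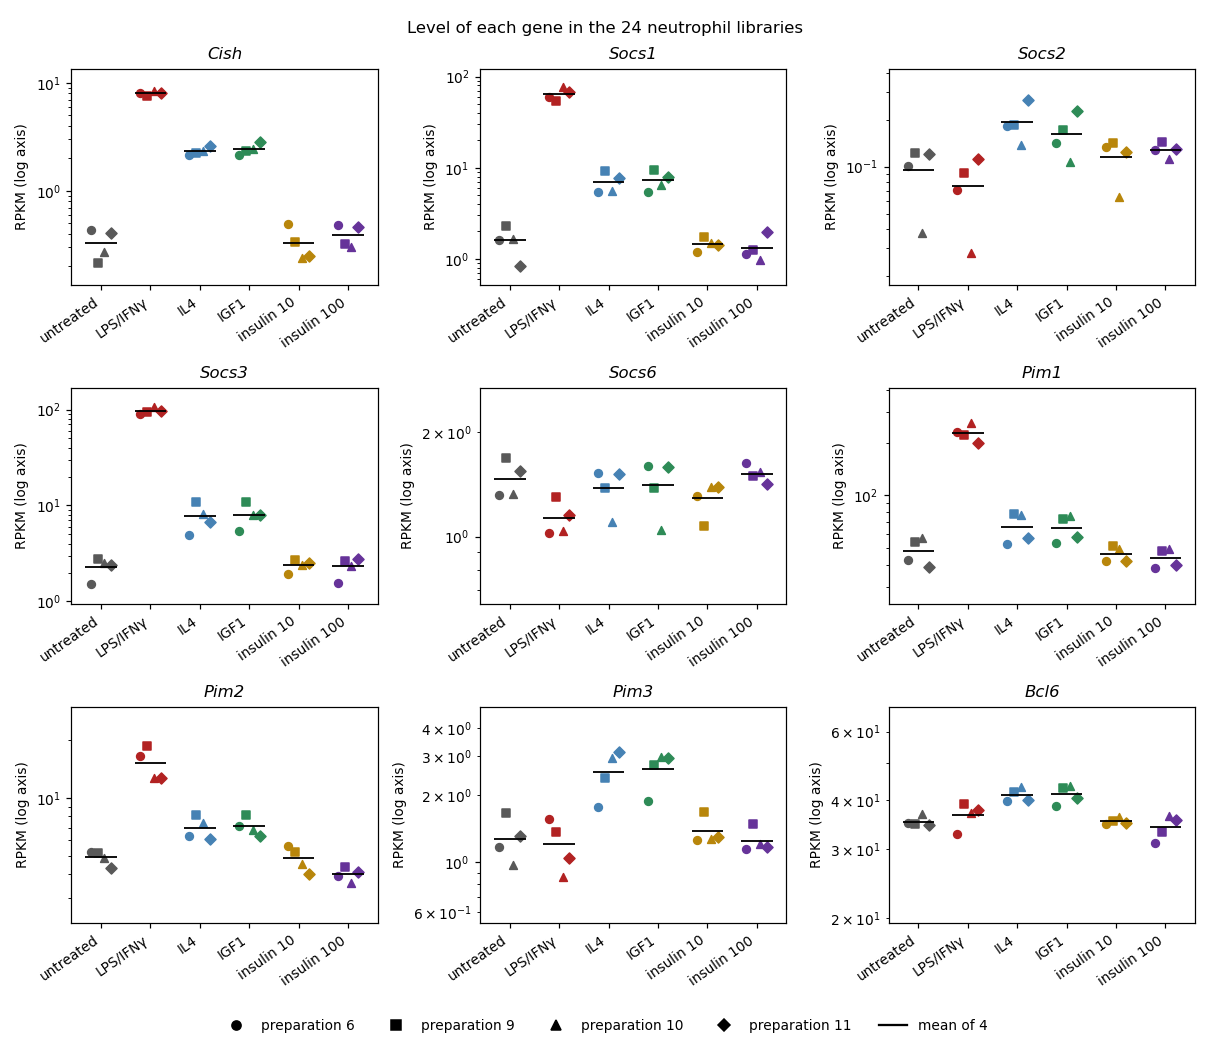
Each panel plots 1 gene, with RPKM on a log axis for the 6 groups. Points are single libraries with the marker showing the preparation, and bars are means of 4. The LPS/IFNγ libraries of Cish, Socs1, Socs3, Pim1 and Pim2 sit above all others, while the IL4 and IGF1 libraries of Pim3 lie between 1.78 and 3.12 RPKM.

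IL4 raised 3 of the 9 genes: Cish, Socs1 and Socs3. IL4 signals through its receptor to STAT6. In this comparison 1.62% of 13097 genes were called higher and 0.0458% lower. Cish had 2.13, 2.23, 2.33 and 2.62 RPKM with IL4 in preparations 6, 9, 10 and 11, which no untreated library reached. Its log2 difference was 2.52 ± 0.19 (SE, limma adjusted p = 0.000193), 5.73-fold.

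Socs1 had 5.41, 9.23, 5.63 and 7.80 RPKM with IL4 in preparations 6, 9, 10 and 11. All of these were above the highest untreated library, with a log2 difference of 2.10 ± 0.29 (SE, limma adjusted p = 0.00887), 4.30-fold. Socs3 had 4.89, 10.9, 8.16 and 6.76 RPKM, again above every untreated library, with a log2 difference of 1.68 ± 0.26 (SE, limma adjusted p = 0.0135), 3.20-fold. In preparation 6 Socs3 was lowest in both groups, and the log2 difference within that preparation was 1.63, inside the range of 1.46 to 1.94 over the 4.

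Pim3 had 1.78, 2.38, 2.93 and 3.12 RPKM with IL4 in preparations 6, 9, 10 and 11, against 1.17, 1.66, 0.974 and 1.31 untreated. The groups did not overlap and the log2 difference was 0.94 ± 0.21 (SE), but the limma adjusted p of 0.0664 missed the threshold. A fit over all 24 libraries gave a limma adjusted p of 0.00526 for the same difference, and the fit without the IL4 library of preparation 6 gave 0.0303. Voom on recovered reads with the preparation as a block also called it (limma adjusted p = 0.00517). It stayed uncalled in the limma fit with that block, in voom without it and under the other pseudocounts, filters and scaling. No other single-library fit called it. Pim2 had a mean of 6.99 ± 0.96 RPKM with IL4 and 4.89 ± 0.41 untreated (SD, n = 4), a log2 difference of 0.50 (limma adjusted p = 0.0725). Pim1 had 66.2 ± 13.1 RPKM with IL4 and 48.0 ± 8.7 untreated, with overlapping libraries and a log2 difference of 0.46 (limma adjusted p = 0.394). Within preparations, however, Pim1 was higher in 4 of 4, by 0.31 to 0.55 on the log2 scale, and the fit with the preparation as a block gave a limma adjusted p of 0.0114, still under the 1.5-fold threshold.

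Bcl6 had 39.8, 41.9, 43.3 and 40.0 RPKM with IL4 in preparations 6, 9, 10 and 11, against 34.9, 34.9, 36.8 and 34.5 untreated. The groups did not overlap, yet the difference was only 1.17-fold, a log2 difference of 0.22 (95% interval 0.09 to 0.36, limma adjusted p = 0.147). Within preparations Bcl6 was higher in 4 of 4, by 0.19 to 0.27 on the log2 scale. In all, 7 of the 9 genes had IL4 libraries above every untreated library, against 4.99% of genes tested. Socs2 was the seventh, at 0.138 to 0.266 RPKM against 0.0377 to 0.122, with 159 reads in the 4 IL4 libraries and 88 in the untreated ones, a log2 difference of 0.59 (limma adjusted p = 0.449), and it was higher in 4 of 4 preparations. Socs6 was 1.38 ± 0.20 RPKM with IL4 and overlapped the untreated group.

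IGF1 raised 4 of the 9 genes: Cish, Socs1, Socs3 and Pim3. IGF1 acts through a receptor tyrosine kinase rather than a cytokine receptor. In this comparison 1.57% of 13093 genes were called higher and 0.0535% lower. The untreated libraries were shared with the IL4 comparison, so the values are given side by side. Cish had 2.13, 2.32, 2.42 and 2.84 RPKM with IGF1 in preparations 6, 9, 10 and 11, all above the untreated group. Its log2 difference was 2.58 ± 0.19 (SE, limma adjusted p = 0.000208), 5.96-fold.

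Socs1 had 5.48, 9.40, 6.53 and 7.96 RPKM with IGF1 in preparations 6, 9, 10 and 11, with a log2 difference of 2.18 ± 0.29 (SE, limma adjusted p = 0.00636), 4.52-fold. Socs3 had 5.44, 10.8, 7.90 and 7.92 RPKM, with a log2 difference of 1.75 ± 0.23 (SE, limma adjusted p = 0.00629), 3.37-fold. Neither gene overlapped the untreated group. Pim3 had 1.88, 2.73, 2.97 and 2.93 RPKM, also above every untreated library, with a log2 difference of 0.98 ± 0.19 (SE, limma adjusted p = 0.0353), 1.98-fold.

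The Pim3 call was not firm: without the IGF1 library of preparation 9, 10 or 11, or the untreated library of preparation 6, 10 or 11, the limma adjusted p was 0.0878 to 0.128 while the log2 difference stayed at 0.87 to 1.00. Pim2 had 7.10 ± 0.77 RPKM with IGF1 (SD, n = 4), all libraries above the untreated ones, and its log2 difference of 0.53 (limma adjusted p = 0.0294) was under the 1.5-fold threshold. Pim1 had 65.2 ± 11.2 RPKM with IGF1 and overlapped the untreated group, with a log2 difference of 0.44 (limma adjusted p = 0.322), though it was higher in 4 of 4 preparations by 0.33 to 0.57; with the preparation as a block the limma adjusted p was 0.00971. Bcl6 had 38.6 to 43.5 RPKM with IGF1, above every untreated library, at 1.17-fold (limma adjusted p = 0.139). Within preparations Bcl6 was higher in 4 of 4, by 0.14 to 0.31 on the log2 scale. Socs2 at 0.162 ± 0.051 RPKM overlapped the untreated group but was higher in 4 of 4 preparations, by 0.27 to 0.59 on the log2 scale, with a limma adjusted p of 0.594 and, with the preparation as a block, 0.325. Socs6 at 1.41 ± 0.26 RPKM also overlapped, higher in 2 preparations and lower in 2. The non-overlapping count was 6 of 9, against 5.71% of genes tested.

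With preparation 10 left out of all groups, a reduction to 3 against 3, Cish alone kept its call with IL4 and with IGF1. The Socs1 log2 difference was then 2.24 with IL4 (limma adjusted p = 0.0628) and 2.27 with IGF1 (0.0548), and that of Socs3 was 1.68 (0.113) and 1.80 (0.0513). Without preparation 6 the limma adjusted p of Socs1 was 0.0628 with IL4 and 0.0630 with IGF1, and without preparation 11 that of Socs3 was 0.142 and 0.105. Without preparation 9 that of Socs3 with IL4 was 0.0541. Pim3 with IGF1 was not called without any 1 of the 4 preparations.

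**Figure D2:**
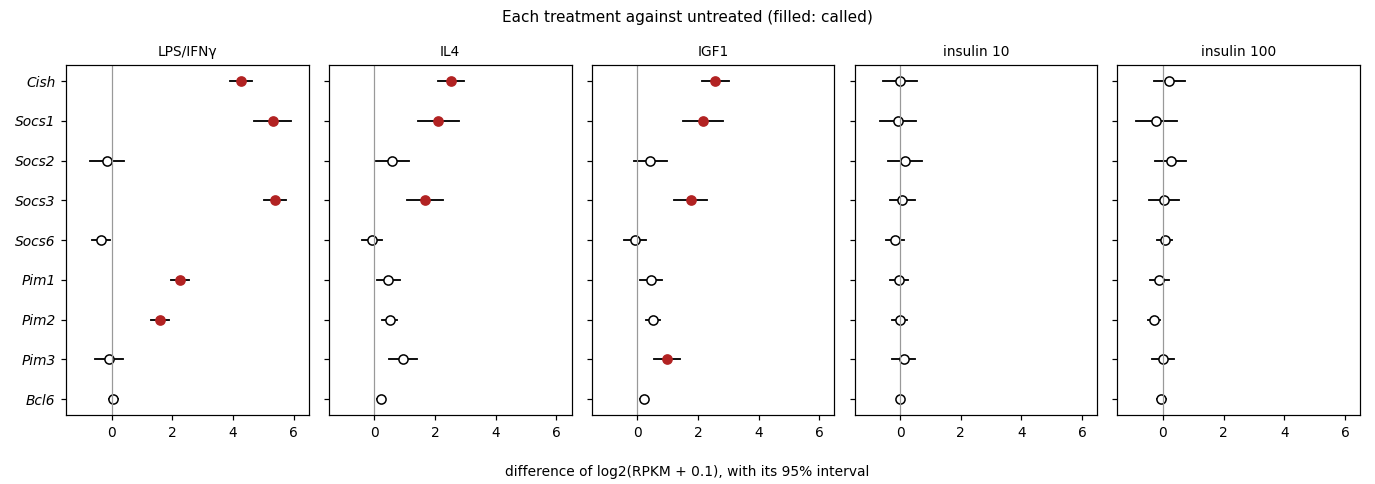
Points give the difference in log2(RPKM + 0.1) between each treatment and the untreated group, and lines the 95% interval. Filled points passed both thresholds. Cish, Socs1 and Socs3 are filled for LPS/IFNγ, IL4 and IGF1, Pim1 and Pim2 for LPS/IFNγ, Pim3 for IGF1, and no point is filled for insulin.

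**Figure D3:**
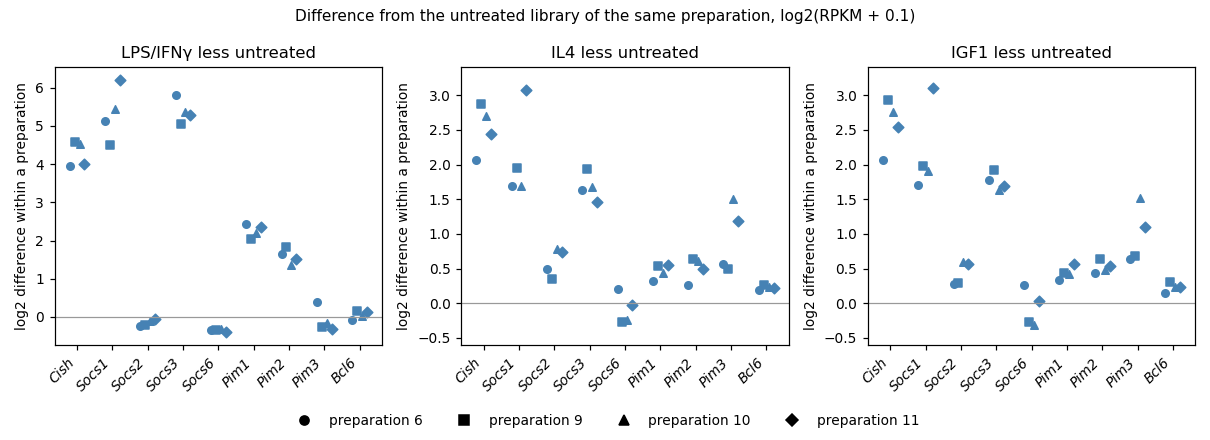
Each point is the log2 difference between the treated library and the untreated library of the same preparation. The left axis spans a wider range than the other panels. Pim1 and Pim2 lie above 0 in all 4 preparations with each of the 3 treatments, and Socs6 lies below 0 in all 4 with LPS/IFNγ.

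Insulin, which at high concentration can also bind the IGF1 receptor, gave no call among the 9 genes. Neither 10 ng/mL nor 100 ng/mL had any of the 9 genes, or any gene at all, past the limma thresholds (0% of 13055 and of 13108 genes called), and voom on recovered reads also called 0 genes at either dose. With the preparation as a block, limma still called 0 genes at either dose, while voom gave 15 calls for the 100 ng/mL dose, 10 of them higher, and 1 for the lower dose, none of them among the 9. Without the 100 ng/mL library of preparation 10, limma called 1 gene at that dose. At an unadjusted p under 0.05, 174 genes and 0 of the 9 were counted at 10 ng/mL, and 321 genes and 1 of the 9 at 100 ng/mL. In all 9 genes the insulin and untreated libraries overlapped, while of all genes 0.666% lay wholly above and 0.429% wholly below at 10 ng/mL, and 1.41% and 0.549% at 100 ng/mL.

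Cish had 0.236 to 0.490 RPKM with 10 ng/mL insulin and 0.303 to 0.486 with 100 ng/mL, over the untreated range of 0.217 to 0.434. The log2 difference was -0.02 (95% interval -0.58 to 0.55) at 10 ng/mL and 0.20 (-0.31 to 0.71) at 100 ng/mL. For Socs3 it was 0.07 (-0.34 to 0.48) and 0.02 (-0.47 to 0.52). For Socs1 it was -0.06 (-0.65 to 0.54) and -0.22 (-0.89 to 0.46). These intervals end below the log2 differences measured with IGF1.

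The gene with an unadjusted p under 0.05 was Pim2, which had 3.89, 4.37, 3.58 and 4.12 RPKM with 100 ng/mL insulin in preparations 6, 9, 10 and 11. It was lower than untreated in 4 of 4 preparations, by 0.07 to 0.43 on the log2 scale, although the ranges overlapped. The log2 difference was -0.29 ± 0.09 (SE), with a limma adjusted p of 1.00. Between the doses, 0 of 13112 genes were called by limma and 0 by voom, with 565 genes at an unadjusted p under 0.05. The limma count of 0 called genes rests on 1 library: without the 10 ng/mL library of preparation 11, limma called 86 genes, all higher at 100 ng/mL and none of the 9. Pim2 was lower at 100 than at 10 ng/mL by a log2 difference of -0.27 (limma adjusted p = 1.00), in 3 of 4 preparations and with overlapping groups. Socs6 was the 1 gene of the set whose dose groups did not overlap, as for 1.08% of genes tested in that direction, at 1.07 to 1.39 RPKM with 10 ng/mL and 1.42 to 1.64 with 100 ng/mL. It was higher at 100 ng/mL in 4 of 4 preparations, by 0.03 to 0.44 on the log2 scale, with a limma adjusted p of 1.00. Pim3 was lower at 100 ng/mL in 4 of 4 preparations, by log2 differences of -0.17 to -0.07, with overlapping groups and a limma adjusted p of 1.00.

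IGF1 was set against each insulin dose directly, in libraries of the same culture time but, for 100 ng/mL, at different concentrations. Against 10 ng/mL, which matches the mass concentration of IGF1, Cish, Socs1, Socs3 and Pim3 were higher with IGF1, 4 of the 9 genes against 1.38% of 13059 genes called higher and 0.0536% lower. The log2 differences were 2.59 ± 0.20 for Cish (SE, limma adjusted p = 0.000241), 2.23 ± 0.18 for Socs1 (0.000271), 1.69 ± 0.19 for Socs3 (0.00276) and 0.87 ± 0.17 for Pim3 (0.0349). Without any 1 of 6 libraries, the IGF1 libraries of preparations 9, 10 and 11 and the insulin libraries of preparations 6, 10 and 11, the Pim3 limma adjusted p was 0.0835 to 0.130.

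Against 100 ng/mL insulin the same 4 genes and Pim2 were higher with IGF1, 5 of 9 against 1.46% of 13124 genes called higher and 0.0686% lower. Pim2 differed by 0.81 ± 0.10 on the log2 scale (SE, limma adjusted p = 0.00332) and its libraries did not overlap (as for 5.68% of genes in that direction), at 6.33 to 8.15 RPKM with IGF1 and 3.58 to 4.37 with insulin. Pim3 differed by 0.99 ± 0.16 (SE, limma adjusted p = 0.0142), which became 0.0544 to 0.0597 without the IGF1 library of preparation 9 or 11 or the insulin library of preparation 6 or 11. Bcl6 was 0.28 higher on the log2 scale (limma adjusted p = 0.133).

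IGF1 and IL4 were compared with each other. None of the 9 genes and none of 13080 genes was called (0%), with 125 genes and 0 of the 9 at an unadjusted p under 0.05, and voom also called 0. The limma fit with the preparation as a block called 1 gene, which was not of the set. All 9 genes overlapped between the groups. The log2 difference of IGF1 less IL4 was 0.06 for Cish (95% interval -0.21 to 0.32), 0.07 for Socs1 (-0.42 to 0.56), 0.08 for Socs3 (-0.54 to 0.70) and 0.05 for Pim3 (-0.42 to 0.52). It was -0.02 for Pim1 (-0.40 to 0.37), 0.03 for Pim2 (-0.25 to 0.30), 0.00 for Bcl6 (-0.16 to 0.17), 0.01 for Socs6 (-0.37 to 0.40) and -0.16 for Socs2 (-0.67 to 0.35). A difference of 1.5-fold, 0.58 on the log2 scale, lay outside the intervals of 7 genes, and inside those of Socs3, upward, and Socs2, downward. With the preparation as a block the interval narrowed to -0.07 to 0.22 for Socs3, and for Socs2 it was -0.58 to 0.25, its lower end at that bound. Within preparations Cish and Socs1 were higher with IGF1 in 4 of 4, by 0.00 to 0.11 and 0.02 to 0.21 on the log2 scale, and Socs2 was lower in 4 of 4, by log2 differences of -0.23 to -0.06. The limma adjusted p with the block was 1.00 for each of the 9 genes.

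LPS/IFNγ and IL4, the inflammatory and the alternative stimulus of the study, were set against each other directly. Of the 9 genes 5 were higher and 2 were lower with LPS/IFNγ, against 7.66% and 19.5% of 13082 genes. The 2 lower are about the share of all genes called lower, so that count is not a result about the set. The log2 difference was 3.70 ± 0.21 for Socs3 (SE, limma adjusted p = 2.39e-06), 3.21 ± 0.18 for Socs1 (1.86e-06), 1.80 ± 0.14 for Pim1 (1.13e-05), 1.75 ± 0.09 for Cish (9.65e-07) and 1.09 ± 0.15 for Pim2 (0.000335). The distance between the stimuli was therefore 12.97-fold for Socs3 and 9.28-fold for Socs1 but 3.36-fold for Cish.

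Pim3 went the other way, at 0.860 to 1.57 RPKM with LPS/IFNγ against 1.78 to 3.12 with IL4. Every LPS/IFNγ library was below every IL4 library, as for 34.1% of genes tested, and the log2 difference was -1.02 ± 0.22 (SE, limma adjusted p = 0.00452), beside an all-gene median of -0.25. Under median-of-ratios scaling it was -0.74. Socs2 was also lower, by a log2 difference of -0.74 ± 0.24 (SE, limma adjusted p = 0.0296), on 75 reads in all with LPS/IFNγ and 159 with IL4. Its IL4 libraries, at 0.138 to 0.266 RPKM, were enough to pass the filter, while the LPS/IFNγ libraries had 0.028 to 0.112. This call is therefore descriptive only. That call was lost under median-of-ratios scaling (-0.59, limma adjusted p = 0.0852) and without the LPS/IFNγ library of preparation 6 or 10 or the IL4 library of preparation 9 or 11 (limma adjusted p 0.0616 to 0.0793). Bcl6 was not called (limma adjusted p = 0.103), but its libraries also lay wholly lower, at 32.87 to 39.1 RPKM against 39.78 to 43.31. In all, 3 of the 9 genes lay wholly lower, about the 34.1% of all genes.

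**Figure D4:**
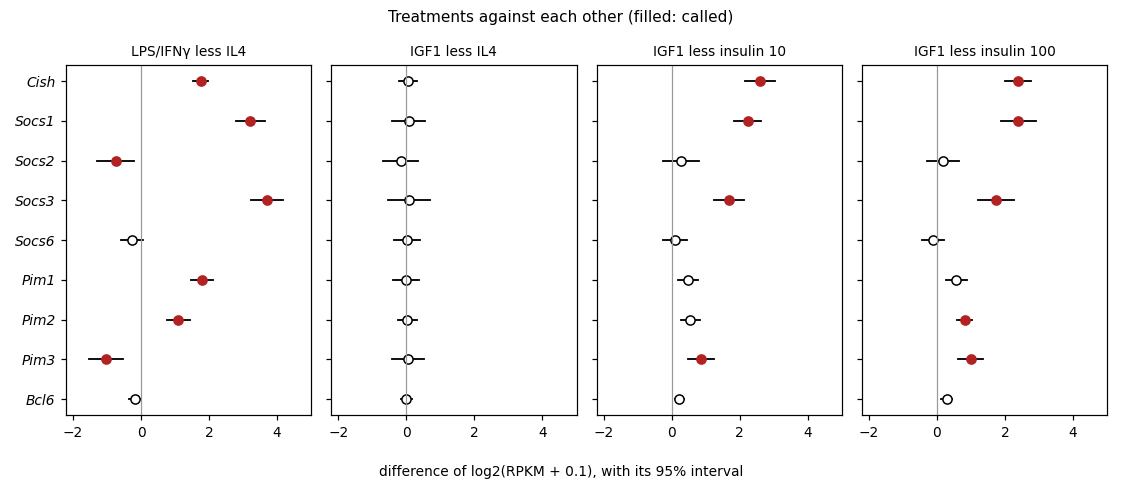
Points give the difference in log2(RPKM + 0.1) between 2 treatments, with 95% intervals, and filled points passed both thresholds. Pim3 and Socs2 lie below 0 for LPS/IFNγ less IL4, all points lie near 0 for IGF1 less IL4, and Cish, Socs1, Socs3 and Pim3 lie above 0 for IGF1 less either insulin dose.

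Over all 6 groups in 1 fit, 7 of the 9 genes differed by the limma F test together with a span of at least 1.5-fold, against 30% of genes. The least firm of them was Socs2, with a span of 0.74 on the log2 scale and an F test limma adjusted p of 0.0391. Its call was lost under median-of-ratios scaling (limma adjusted p = 0.121), with a pseudocount of 0.01 (0.0629), with a pseudocount of 1 or a 2-fold threshold, where the span was too small, and without preparation 10 (0.0503). It was also lost without any 1 of 10 of the 24 libraries (0.0503 to 0.0945), namely those of untreated cells of preparation 6, LPS/IFNγ of preparations 6, 9 and 10, IL4 of 6, 9 and 11, IGF1 of 9 and 11 and 100 ng/mL insulin of 11. The other 6 genes called kept their calls in each of these single-library fits. Bcl6 had an F test limma adjusted p of 0.000656 but a span of only 0.28 on the log2 scale, and Socs6 had 0.144. For Cish, Socs1 and Socs3 the order of means was LPS/IFNγ, then IGF1 and IL4, then the untreated and insulin groups. IGF1 and IL4 overlapped in each, as did the last 3 groups, and the steps between these tiers did not overlap. Pim1 had a single non-overlapping step, below LPS/IFNγ, and Pim3 a single one, between the IGF1 and IL4 pair and the rest. Over the 24 libraries, which share these treatments, log2 levels of Socs3 and Socs1 had a Pearson r of 0.98, Socs3 and Pim1 0.98, Socs1 and Pim2 0.95, and Cish and Socs1 0.95, whereas Pim3 had 0.02 with Socs3, -0.09 with Pim1 and 0.71 with Bcl6.

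The genes whose log2 levels followed each member most closely over the 24 libraries, among 9296 genes with a mean of at least 1 RPKM, were chosen by Pearson r. For Cish they were Serpina3g (0.977), Irf7 (0.977) and Cd300lf (0.976), for Socs1 Serpina3g (0.984), Arid5a (0.981) and Socs3 (0.9799), and for Socs3 Cass4 (0.988), Il4ra (0.987) and Sbno2 (0.983). For Pim1 they were Pi4ka (0.981), 1110038F14Rik (0.979) and Ankrd66 (0.979), and for Pim2 Gm7694 (0.973), Atf6 (0.965) and Arid5a (0.961). Pim3 was nearest to Il4i1 (0.920), Wdr46 (0.918) and Tcof1 (0.912), and Bcl6 to Arg2 (0.915), Bcl2l11 (0.904) and Zfp263 (0.886). The low or flat genes had lower values, with Rapgefl1 (0.908), Fasn (0.884) and Fam43a (0.879) for Socs2 and Nsun3 (0.866), Zfp207 (0.863) and Clk4 (0.862) for Socs6. Such r values over libraries that share treatments and preparations are descriptive.

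Several members also differed between preparations. Measured as the deviation from the group mean, Socs3 was low in preparation 6 in 6 of 6 groups, by -0.42 on the log2 scale on average. Pim1 was high in preparation 10 (0.20) and low in preparation 11 (-0.18), each in 6 of 6 groups. Socs2 was low in preparation 10 (-0.33) and high in preparation 11 (0.21), and Pim2 was high in preparation 9 (0.18), also in 6 of 6 groups. The same held, by smaller amounts, for Socs3 in preparation 10 (0.09) and Bcl6 in preparations 6 (-0.08) and 10 (0.06). The share of all genes with such one-sided deviations was not worked out, so these are not traits particular to the members. Because a header number may stand for a batch of libraries as well as of cells, these sources of difference cannot be told apart.

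Other genes around the pathway were counted in 7 lists. Their counts are to be read against the shares of all genes tested, 8.15% called higher and 17.8% lower with LPS/IFNγ, 1.62% higher with IL4 and 1.57% higher with IGF1, so that a share near these is not a result about a list. Of 21 other intracellular JAK/STAT inhibitors tested, 3 rose and 1 fell with LPS/IFNγ, and 0 were called with IL4 or IGF1, where their median log2 difference was 0.04 and 0.02 beside 0.02 and 0.02 over all genes. Usp18, an isopeptidase that restrains the type I interferon receptor, went from 0.568 ± 0.133 to 15.4 ± 1.9 RPKM with LPS/IFNγ (SD, n = 4), a log2 difference of 4.55 (limma adjusted p = 2.51e-08). Ptpn2 and Ptprc, tyrosine phosphatases that act on JAKs, rose by 1.06 and 0.74 on the log2 scale, and Pias3, an inhibitor of STAT3, fell by 0.96.

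Of the 10 JAK and STAT genes reported here, 4 rose with LPS/IFNγ and 1 each with IL4 and IGF1. Stat2 rose from 6.70 ± 0.67 to 89.6 ± 4.7 RPKM and Stat3 from 24.1 ± 0.6 to 62.9 ± 3.8 RPKM (SD, n = 4), and Jak2 and Jak3 were also called. The gene that rose with IL4 and IGF1 was Jak2, the kinase gene, with 33.2 ± 3.8 RPKM untreated, 61.5 ± 4.1 with IL4 (limma adjusted p = 0.00132) and 59.5 ± 4.4 with IGF1 (limma adjusted p = 0.00224).

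Of 18 receptor genes tested, 6 rose and 3 fell with LPS/IFNγ, 3 rose with IL4 and 2 with IGF1. The 3 that fell are about the share of all genes called lower (17.8%). With LPS/IFNγ Il4ra, the IL4 receptor chain, rose by a log2 difference of 1.88 and Il2rg, the common gamma chain, by 2.13, whereas the IGF1 receptor gene Igf1r fell from 17.0 ± 0.3 to 6.68 ± 0.95 RPKM and the insulin receptor gene Insr from 10.4 ± 0.7 to 5.42 ± 0.63. Ifngr1, a chain of the interferon-gamma receptor, and Il6st, which encodes gp130, rose with IL4 and with IGF1, Ifngr1 by 0.78 and 0.80 and Il6st by 0.62 and 0.62 on the log2 scale. The third receptor gene with IL4 was Csf2rb, the common beta chain (0.59).

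Of 15 genes for known PIM substrates, 1 rose and 7 fell with LPS/IFNγ, with a median log2 difference of -0.40 beside -0.22 over all genes. Map3k5, a stress kinase, fell from 32.6 ± 0.9 to 9.82 ± 0.86 RPKM and Eif4ebp1, a translation inhibitor, from 21.4 ± 1.3 to 10.3 ± 0.9, while Cdkn1a, a cell cycle inhibitor, rose by a log2 difference of 0.77. None was called with IL4 or IGF1.

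Of 22 BCL6 corepressors and known targets, 6 rose and 2 fell with LPS/IFNγ, 1 rose with IL4 and 2 with IGF1. Cd69, an early activation antigen, rose by a log2 difference of 2.84, Tnfaip3, an NF-kB inhibitor, by 2.52 and Prdm1, which encodes BLIMP1, by 2.48 with LPS/IFNγ, and Hdac4, a corepressor deacetylase, fell from 19.9 ± 1.8 to 7.47 ± 0.63 RPKM. The survival gene Bcl2 rose from 0.499 ± 0.136 to 1.42 ± 0.29 RPKM with IL4 and 1.41 ± 0.36 with IGF1, and Ccnd2, a cyclin gene, to 4.56 ± 1.69 RPKM with IGF1 from 1.56 ± 0.49.

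Of 19 other STAT5 and STAT3 response genes, 8 rose and 3 fell with LPS/IFNγ, among them Bcl3, a nuclear IkB protein gene (2.62 on the log2 scale), and Junb, an AP-1 subunit gene (1.66). With IL4 1 was called (Bcl2) and 2 with IGF1 (Bcl2 and Ccnd2), which are the same genes as in the BCL6 list. Of STAT6 response genes, 8 of 18 tested rose with IL4, with a median of 1.21 on the log2 scale, and 10 of 19 rose with IGF1, with a median of 1.16, beside 0.02 over all genes in each. Examples were Retnla, a resistin-like secreted protein gene (5.45 with IL4 and 5.38 with IGF1), and Il4i1, an amino acid oxidase gene (3.37 and 3.36). With LPS/IFNγ 3 of 15 STAT6 response genes rose and 2 fell. The number tested differs because the filter needed 0.1 RPKM in 4 of the 8 libraries compared. Arg1, Clec10a and Pparg, called with IL4 and IGF1, and Ccl24, called with IGF1, did not pass it with LPS/IFNγ. Arg1 had a mean of 0.0127 RPKM untreated and 0.221 with IL4. Genes that passed through their treated libraries thus enter the IL4 and IGF1 counts and medians, which are descriptive only. The LPS/IFNγ counts also share genes. Il4ra was counted as risen in the receptor list, the STAT5 and STAT3 list and the STAT6 list. Cdkn1a was counted in the PIM, BCL6 and STAT5 and STAT3 lists, and Ccnd2 in the last 2 of these. All 7 lists had 0 calls with either insulin dose. Under median-of-ratios scaling the LPS/IFNγ counts, higher and lower, were 4 and 1 for the other inhibitors, 5 and 0 for JAK and STAT genes, 7 and 2 for receptors, 2 and 5 for PIM substrates, 8 and 2 for the BCL6 list, 10 and 2 for STAT5 and STAT3 response genes and 3 and 1 for STAT6 response genes.

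Among markers of other cells, the summed level of 1 list lay clearly apart from the untreated group. Summed dendritic cell markers were 18.8 to 23.1 RPKM with LPS/IFNγ against 6.091 to 7.535 untreated. The gene that made up most of that sum was Bst2, also an interferon-induced gene, at 14.7 to 20.0 against 1.17 to 2.27 RPKM. Flt3 went the other way, at 0.095 to 0.149 against 0.262 to 0.440, as did Itgax, at 1.64 to 2.27 against 3.73 to 4.4. With IL4 the dendritic sum was 7.545 to 8.007 RPKM, above the untreated range by a narrow margin. Summed T and NK markers were 18.9 to 27.5 RPKM with IL4, 18.8 to 27.0 with IGF1 and 9.42 to 18.1 with LPS/IFNγ, each overlapping the untreated range of 14.8 to 22.1. Single genes of that list did not move together. Cd8a was at 3.45 to 7.50 RPKM with IL4 and 3.42 to 7.27 with IGF1, above the 0.670 to 1.66 of the untreated libraries, and at 0.675 to 1.46 with LPS/IFNγ. Cd3d was at 0.927 to 3.05 RPKM with LPS/IFNγ, below the untreated range of 3.98 to 4.80, and at 2.89 to 4.50 with IL4 and 3.09 to 3.94 with IGF1. The part of such cells in the levels of the 9 genes was not tested.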

How the data were processed

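RNA of 24 libraries was sequenced from a stranded mRNA kit as single reads. Per the study's methods, the authors trimmed the reads, mapped them to GRCm38 in CLC Genomics Workbench and deposited RPKM per gene, 1 file a library; bcl2fastq 2.17.1.4 made the read files. From these values the reads per gene were recovered with GENCODE M21 exon lengths: 14746 of 21058 genes above 0 (70.0%) gave whole reads within 0.001 at the annotated length and 6312 at a fitted length. The main test was limma 3.58.1 (trend and robust, R 4.3.3) on log2(RPKM + 0.1) for genes with at least 0.1 RPKM in 4 of the 8 libraries compared, two-sided, Benjamini-Hochberg over all genes tested, called at adjusted p under 0.05 and 1.5-fold. The script was tested on simulated data.

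Groups came from the labels. Same-numbered libraries deviated together: over 60 pairs of 1 preparation the lowest correlation of deviations was 0.182 and the median 0.356, against a median of -0.106 for 180 other pairs, and 24 of 24 libraries were closest to their own preparation. The number therefore served as the replicate block in an alternative fit. The other alternatives were pseudocounts, filters, scaling, fold thresholds, voom on recovered reads, 1 fit of all libraries and leaving out each library or preparation; those leaving out a preparation were chosen after seeing the data. Members and gene lists were chosen with earlier results of these data known. Named genes were all 9 members, the 3 closest genes by Pearson r for each, and up to 4 called genes of a list by adjusted p, with further ones where a count of 5 or fewer is explained. RPKM depend on the exon length used, 6419 bases for Cish and 9531 for Socs2. The recovered reads of Socs1, Socs6, Pim1 and Pim3 rest on a fitted length, the smallest that gave whole reads. It was 1220 bases for Socs1 against 2908 annotated, and 2638 against 3362 for Pim1. Protein comparisons were not made here. In the list of JAK and STAT genes, 1 gene is not reported here.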

Additional observations from a re-analysis of the deposited data

Results flagged for a closer look

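Pim3 in the group with 10 ng/mL insulin had 1 library apart from the others, that of preparation 9 at 1.68 RPKM against 1.27 to 1.31 RPKM in the other 3. The gap to the nearest library was 0.904 of the range of the group, above Dixon's 95% critical value for 4 values. It was the 1 such case among 54 sets of 4 values (9 genes in 6 groups), and chance gives about 1 in 20. Preparation 9 also had the highest Pim3 level of the untreated group (1.66 RPKM) and of the 100 ng/mL insulin group (1.48 RPKM).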

How the results depend on the processing

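Of the 90 differences (9 genes, 10 comparisons), 28 were called in the main setting, and 15 of the 90 changed their call in some setting. Of 2229 recomputed values of the 90 differences, 2166 kept their side of the thresholds, 57 lost and 6 gained a call, and none with a call reversed. The 57 losses all belong to the 28 differences called, and none was in LPS/IFNγ against untreated. Against untreated, the calls lost were Socs1 and Socs3 with IL4, and Socs1, Socs3 and Pim3 with IGF1. The others were Socs3 and Pim3 with IGF1 against each insulin dose, Pim2 with IGF1 against 100 ng/mL, and Socs2 with LPS/IFNγ against IL4. Of the 2166 values, 87 had the other sign, each called neither in the main setting nor in the alternative. The limma fit with the preparation as replicate block left the number of members called at 5 for LPS/IFNγ, 3 for IL4, 4 for IGF1, 0 for each insulin dose, and 7 for LPS/IFNγ against IL4, and so changed no member count. Voom on recovered reads with that block raised the IL4 count from 3 to 5, adding Pim3 and Socs2. Without preparation 10 the count was 1 for IL4, 1 for IGF1 and 3 for IGF1 against 100 ng/mL insulin. Without preparation 6 the IGF1 count was 2, and without preparation 11 it was 2 for IGF1, 2 for IGF1 against 10 ng/mL insulin and 3 for IGF1 against 100 ng/mL, where a 2-fold threshold also gave 3. With IL4, Socs1 lost its call without preparation 6 (limma adjusted p = 0.0628). Socs3 with IL4 lost its call without preparation 9 (limma adjusted p = 0.0541) and without preparation 11 (0.142). These fits have 3 against 3 libraries. Leaving out single libraries gave 5 to 5 members for LPS/IFNγ, 3 to 4 for IL4, 3 to 4 for IGF1, 0 to 0 for each insulin dose against untreated, for one dose against the other and for IGF1 against IL4, 3 to 4 and 4 to 5 for IGF1 against 10 and 100 ng/mL insulin, 6 to 7 for LPS/IFNγ against IL4 and 6 to 7 for the F test. Depth limits Socs2, with 5 to 48 reads a library, and Cish outside the 3 groups in which it was called, with 30 to 76.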
